A study of Mus musculus with 12 samples.

Results

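Heat-shock T cells are the cells that the authors' per-cell table places in cluster 8 of its 9 clusters, numbered 0 to 8. They were taken by that number alone and joined to the expression matrices by library and barcode, which gave 497 of 30749 T cells. The table gives clusters no names, and the name comes from 6 genes given with the cluster: the chaperones Hspa1a, Hspa1b, Hsph1 and Dnajb1, and the AP-1 transcription factor genes Fos and Jun. Each of the 6 was higher in the cluster than in the other cells of the mouse in 6 of 6 mice. The clustering itself used the transcripts of these cells, so all levels of cluster 8 against other cells are descriptions with no test.

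The cells came from subcutaneous MCA205 fibrosarcomas, started with 300000 cells in C57Bl/6 mice. In 3 mice the treatment was a neutralising antibody to acyl-CoA binding protein (ACBP, the product of Dbi), and 3 control mice received an isotype IgG2a, each at 2.5 mg/kg, starting 2 days ahead of the chemotherapy and ending 1 day ahead of the immunotherapy. Both groups received 10 mg/kg of oxaliplatin, a platinum drug, 8 days after injection and 200 µg of anti-PD-1 after 8 more days, so no mouse was without chemoimmunotherapy. Tumours were taken 2 days later, and 10000 cells of each mouse, an equal mix of its sorted CD4 and CD8 T cells, went into 5′ single-cell RNA and T cell receptor sequencing. The sort thus set the CD4 to CD8 ratio.

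Heat shock proteins are chaperones that keep other proteins folded. In unstressed cells the transcription factor HSF1 is held inactive; when unfolded proteins accumulate, HSF1 forms trimers, binds heat shock elements in promoters and switches on the inducible HSP70 genes with their partners. HSP40 (DNAJ) proteins hand clients to HSP70, HSP110 exchanges its nucleotide, HSP90 finishes the folding of kinases and receptors, and HSP60 with HSP10 folds proteins inside mitochondria. Fos and Jun belong to the immediate early genes, which are transcribed within minutes of a stimulus without new protein synthesis. In T cells both sets respond to stress and to receptor signals, and both are also known to be switched on by warming and enzymatic dissociation of tissue. Where and when the cells of cluster 8 acquired these transcripts was not tested.

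The promoters of 4 chaperone genes of the cluster are shown because they carry the letters of the heat shock element, inverted repeats of GAA. Each line gives the 250 bases before the gene's start, 5′ to 3′ on the gene's strand, from RefSeq on GRCm38.p6, and capitals mark GAANNTTC or TTCNNGAA matches. Hspa1a lies at chr17:34972157-34972406 on the minus strand and Hspa1b, its near-identical neighbour, at chr17:34959239-34959488 on the minus strand. The window of Hsph1, the one with the most matches of 2 listed starts, is chr5:149636316-149636565 on the minus strand, and that of Hspe1, which encodes the mitochondrial HSP10, is chr1:55087898-55088147 on the plus strand.
Hspa1a: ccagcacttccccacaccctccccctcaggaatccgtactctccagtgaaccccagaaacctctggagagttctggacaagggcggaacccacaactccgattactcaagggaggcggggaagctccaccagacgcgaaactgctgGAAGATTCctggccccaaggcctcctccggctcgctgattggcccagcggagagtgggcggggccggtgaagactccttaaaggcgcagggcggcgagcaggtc
Hspa1b: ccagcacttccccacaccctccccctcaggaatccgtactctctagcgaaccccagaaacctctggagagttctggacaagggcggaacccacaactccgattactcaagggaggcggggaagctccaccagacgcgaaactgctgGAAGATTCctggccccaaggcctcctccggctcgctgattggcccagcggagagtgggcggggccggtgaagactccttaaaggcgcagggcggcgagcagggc
Hsph1: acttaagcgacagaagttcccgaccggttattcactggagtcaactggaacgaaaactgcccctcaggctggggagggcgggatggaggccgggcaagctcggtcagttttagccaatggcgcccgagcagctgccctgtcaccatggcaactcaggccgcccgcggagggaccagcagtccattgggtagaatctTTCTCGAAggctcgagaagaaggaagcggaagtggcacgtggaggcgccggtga
Hspe1: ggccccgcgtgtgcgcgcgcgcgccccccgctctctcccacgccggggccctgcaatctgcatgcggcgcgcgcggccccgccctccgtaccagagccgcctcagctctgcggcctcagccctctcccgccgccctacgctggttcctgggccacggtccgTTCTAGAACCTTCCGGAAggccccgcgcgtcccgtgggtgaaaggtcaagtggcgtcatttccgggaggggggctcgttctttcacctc
The windows of Hspa1a and Hspa1b were the same at 247 of 250 bases and differed at 3, and both had their single match starting 104 bases before the gene's start. Hspe1 held 3 overlapping matches that together spell the longer motif TTCNNGAANNTTC and its reverse complement GAANNTTCNNGAA. Hspd1, which encodes HSP60, starts head to head with Hspe1, and its window (chr1:55087933-55088182, minus strand) overlaps the same letters. The Hspe1 and Hspd1 windows were chosen after the matches were seen. Of the 24 genes named below as higher in cluster 8, 19 had a window, of which 9 (47.4%) held an 8-letter match and 2 (10.5%, Hspe1 and Hspd1) a 13-letter match. Among all 27025 genes with a window at any listed start the shares were 14.5% and 0.514%. Both 8-letter motifs are their own reverse complement, so the search covered both strands. Fos, Dnajb1, Bag3 and Klf2 had no match in this window, which says only that these letters are not in these 250 bases.

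The 6 libraries held 27791735 to 65519423 UMIs (unique molecular identifiers, each a counted transcript molecule) in the cells used, with medians of 4516 to 7682 UMIs per cell. The sums over cluster 8 were 296869, 182215 and 127361 UMIs in anti-ACBP mice 1 to 3, against 2412852, 195153 and 201879 UMIs in isotype mice 1 to 3. Isotype mouse 1 gave 66.4% of the cluster's cells and 23.5% of all cells, so levels and tests are taken per mouse and not over pooled cells. In all, 536 barcodes were found in more than 1 library. They include the barcodes of 13 cells of cluster 8, and 0 barcodes were in cluster 8 of both libraries.

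Cells of cluster 8 were T cells by their transcripts. The 8 T cell markers summed to 4598 to 5969 CPM (UMIs of a gene per 1000000 UMIs of the sum) in cluster 8 over the 6 mice, against 5078 to 5986 CPM in the other cells. All 5 fibroblast and tumour markers, among them Col1a1 and Sparc, and all 3 haemoglobin genes were at 0 UMIs in cluster 8. Of the 6 macrophage markers 5 were at 0, and the list summed to 0 to 15.4 CPM in cluster 8, against 11.6 to 14.1 CPM in the other cells. Of the NK list, Ncr1 and Klra8 were at 0 while Eomes, which T cells also express, averaged 11.7 CPM and Klrb1c 4.97 CPM, and the list summed to 5.13 to 24.8 CPM in cluster 8 against 9.08 to 17.0 CPM in the other cells. The endothelial genes Cdh5 and Kdr were at 0, and Pecam1 averaged 13.4 CPM against 17.9 CPM. The B cell list summed to 0 to 7.87 CPM against 2.45 to 4.503 CPM, with Ms4a1 at 0 and Cd79b present, and the neutrophil list to at most 0.830 CPM. Pooled over mice, the median cell of cluster 8 had 5256 UMIs, with 0.811% mitochondrial, against 6141.5 UMIs and 0.771% in the median other cell. Also pooled over mice, 29.0% of cells of cluster 8 were in S or G2/M phase by the authors' calls, against 28.7% of other cells.

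The inducible HSP70 genes set the cluster apart most. Hspa1a, a cytosolic chaperone with almost no transcript in resting cells, had 2575, 3606 and 1881 CPM in cluster 8 of anti-ACBP mice and 2407, 3747 and 2466 CPM in cluster 8 of isotype mice. In the other cells of the same mice it had 15.1, 7.92 and 8.88 CPM under anti-ACBP and 29.5, 7.39 and 13.1 CPM under isotype. Cluster 8 lay far above the other cells in every mouse, with no overlap. The median log2 ratio, on CPM plus 1 as throughout for levels, was 7.51 (6.30 to 8.80 over mice), a 183-fold difference. Hspa1b, whose product is nearly the same protein, had 2656, 3485 and 1967 CPM in anti-ACBP mice and 2296, 3459 and 2481 CPM in isotype mice in cluster 8, with a median log2 ratio of 7.07 (5.68 to 8.36). Reads of these paralogs may be split between them by the counting, so their values are best read as a pair. Hsph1, the HSP110 that recharges HSP70, had 526, 819 and 535 CPM in anti-ACBP mice and 653, 1073 and 610.3 CPM in isotype mice in cluster 8. In the other cells it ranged from 48.2 to 121 CPM, and the median log2 ratio was 3.32.

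**Figure D1:**
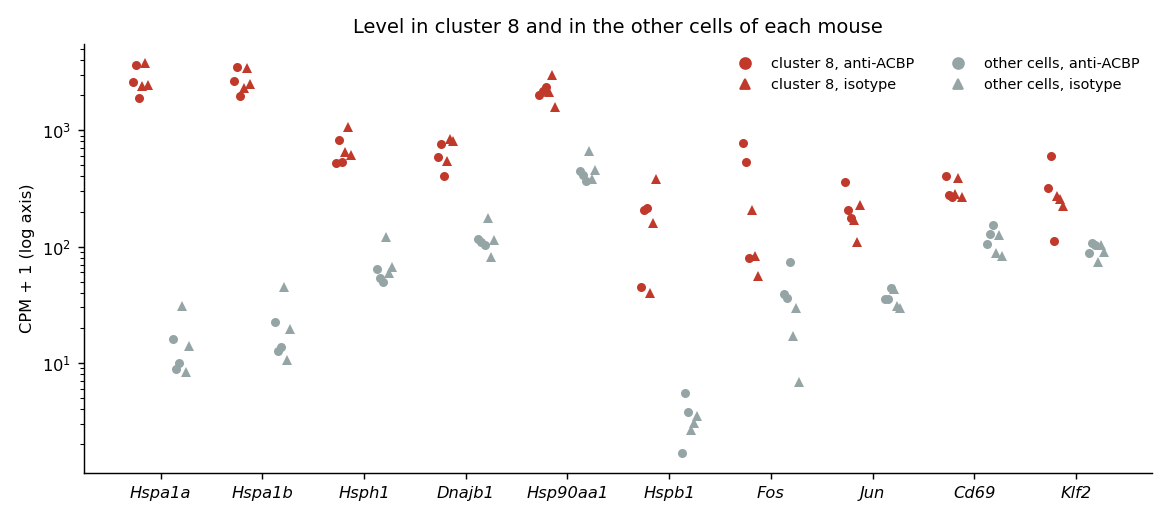
Level of the 6 marker genes, Hsp90aa1, Hspb1, Cd69 and Klf2 (CPM plus 1 of UMI counts summed per mouse, log axis) in cluster 8 and in the other cells of each mouse, anti-ACBP mice as circles and isotype mice as triangles. The chaperone genes are separated in every mouse, while Fos of anti-ACBP mouse 3 had 78.7 CPM in cluster 8 and 73.2 CPM in its other cells.

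The members of each chaperone family differed among themselves. Among 11 HSP70 and HSP110 genes with at least 10 CPM, 4 were higher in cluster 8 in 6 of 6 mice and 0 were lower: Hspa1a, Hspa1b, Hsph1 and Hspa8, the constitutive cytosolic HSP70, with a median log2 ratio of 0.97. The background is that 3.68% of the 7737 genes at this level were higher and 8.18% lower in all 6 mice, with a median over all of -0.07. Hspa5, the HSP70 of the endoplasmic reticulum (0.14), Hspa9, that of mitochondria (-0.26), and Hyou1, an endoplasmic reticulum HSP110 (-0.24), lay near that median, and the list's median was 0.14. The 4 higher genes all encode cytosolic proteins.

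The partners of HSP70 and HSP90 also split by gene. Dnajb1, the HSP40 that recruits HSP70 to unfolded clients, had 584, 753 and 401 CPM in anti-ACBP mice and 539, 831 and 809 CPM in isotype mice in cluster 8, against 79.6 to 175 CPM in the other cells (median log2 ratio 2.57). Of 17 HSP40 genes 5 were higher in 6 of 6 mice, with Dnaja4 at 2.11, Dnaja1 at 1.89, Dnajb4 at 1.19 and Dnajb9 at 0.58. Only 1 was lower, Dnajb11 at -0.25. Dnajb9 and Dnajb11 are both endoplasmic reticulum genes, so genes of that compartment went both ways. Among 15 genes of HSP90 and its co-chaperones 7 were higher: the inducible Hsp90aa1 at 2.29, the constitutive Hsp90ab1 at 0.84, and the co-chaperone genes Cacybp, Ahsa1, Fkbp4, St13 and Chordc1 between 0.36 and 0.94. Hsp90b1, the HSP90 of the endoplasmic reticulum, was lower in all 6 mice (-0.29). The medians were 0.00 for the HSP40 list and 0.36 for the HSP90 list.

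In the list of small HSPs, chaperonins and BAG proteins 5 of 16 genes were higher in 6 of 6 mice and 0 lower (median -0.02). Hspb1, the small heat shock protein HSP27, had 43.9, 203 and 212 CPM in anti-ACBP mice and 39.0, 159 and 377 CPM in isotype mice in cluster 8, against 0.664 to 4.497 CPM in the other cells (5.47). Few cells carried it: a UMI was found in 1 of 46, 3 of 19 and 1 of 14 cells of the cluster in anti-ACBP mice and in 18 of 330, 6 of 45 and 5 of 43 in isotype mice. Bag3, which couples HSP70 to autophagy, stood at 2.20, and the mitochondrial pair Hspe1 and Hspd1, whose shared promoter carries the long motif printed above, at 1.98 and 1.53. The fifth was Cct6a at 0.57, a subunit of the cytosolic chaperonin. Of the 3 heat shock factor genes at 10 CPM or more 0 were higher or lower in all mice; Hsf1 stood at 0.55 and was higher in 5 of 6. In the endoplasmic reticulum stress list 3 of 17 were higher and 3 lower, with a median of -0.10, and in the interferon response list 0 of 16 were higher or lower in all 6 mice (0.02).

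**Figure D2:**
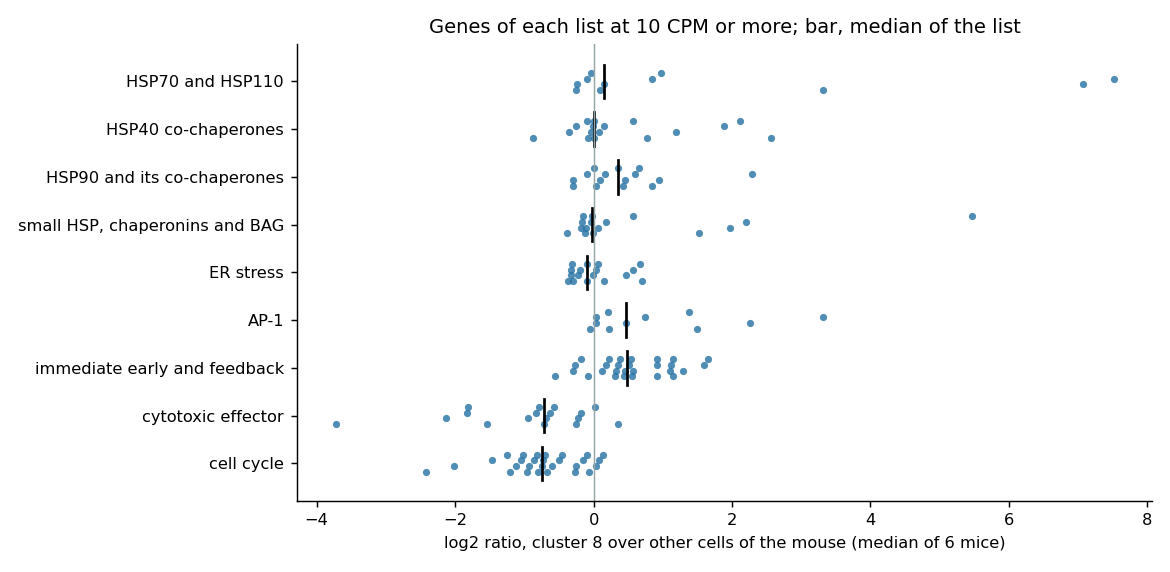
Log2 ratio of cluster 8 over the other cells of the mouse (CPM plus 1, median over 6 mice) for each gene with at least 10 CPM in 9 of the gene lists, with a bar at the list's median. A few chaperone genes stand far to the right while the medians of their lists lie between -0.02 and 0.36, and the lists of cytotoxic effectors and cell cycle genes lie below 0, with medians of -0.72 and -0.74.

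Immediate early genes were higher as well, with more spread between mice than the chaperones. Fos, a subunit of AP-1, had 769, 528 and 78.7 CPM in anti-ACBP mice and 206, 82.1 and 54.6 CPM in isotype mice in cluster 8. The other cells had 38.4, 35.0 and 73.2 CPM in anti-ACBP mice and 16.1, 28.5 and 5.77 CPM in isotype mice, and the median log2 ratio was 3.32 (0.10 to 4.29). Anti-ACBP mouse 3 was barely above its other cells. Jun, the partner of Fos, had 354, 203 and 173 CPM in anti-ACBP mice and 169, 108 and 228 CPM in isotype mice in cluster 8, all above the 28.9 to 42.9 CPM of the other cells (2.26). Of 11 AP-1 genes 2 were higher in 6 of 6 mice and 0 lower (median 0.47), while Atf3, a stress-induced repressor, at 1.499 and Fosb at 1.38 were higher in 5 of 6. Of 28 further immediate early and feedback genes 6 were higher and 0 lower (median 0.48): Cd69, an early activation marker that keeps T cells in tissue, at 1.66, Klf2, which maintains egress receptors, at 1.59, Dusp1, a phosphatase that ends MAP kinase signals, at 1.29, Egr1 at 1.14, Klf6 at 1.12 and Ier2 at 0.31.

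Other genes among the 24 highest were the kinase gene Map3k8 (1.59), Phlda1 (1.78), Sap30, a subunit of a histone deacetylase complex (1.77, higher in 5 of 6), Ccdc117 (1.43), Irf4, a transcription factor induced by receptor signals (1.21), and Trat1, a T cell receptor adaptor (1.20). In all, 21 of the 24 were higher in 6 of 6 mice, a count that their choice as the highest genes favours. S1pr1, the receptor that guides T cells out of tissue and a target of Klf2, was also higher in 6 of 6 mice (0.90), one of 3 of 13 naive and memory genes that were.

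Effector genes were lower in cluster 8 than in the sum of all other cells of the mouse. These genes were not compared cluster by cluster, so whether any single other cluster was as low was not tested. Gzmd had 30.4, 0 and 0 CPM in anti-ACBP mice and 6.64, 0 and 0 CPM in isotype mice in cluster 8, against 379 to 701 CPM in the other cells of anti-ACBP mice and 175 to 306 CPM in those of isotype mice. It was lowest of all named genes, at a median log2 ratio of -7.86, a value that depends on the added 1 CPM because 4 sums were 0. Other granzyme genes followed, Gzme at -6.29, Gzmg at -5.64, Gzmf at -4.78, Gzmc at -3.73 and Gzma at -2.13. Gzmc to Gzmg are close copies and may share reads. Serpinb9b, of the serpin family of granzyme inhibitors (-5.01), Spp1, encoding osteopontin (-4.58), Areg, an epidermal growth factor receptor ligand (-3.99), the cytokine gene Il13 (-3.80), and the enkephalin precursor Penk (-2.40) were lower in all 6 mice too. Gzme, Gzmg, Serpinb9b, Spp1, Areg and Il13 also had sums at 0 CPM in cluster 8. Their ratios and their order thus depend on the added 1 CPM too. Of the 14 named lower genes, chosen for their low ratios, 11 were lower in 6 of 6 mice.

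Il2, Csf2 and Ccl1, all products of activated T cells, were the exceptions. Il2, the T cell growth factor, had 23.6, 0 and 0 CPM in anti-ACBP mice and 293, 0 and 0 CPM in isotype mice in cluster 8, against 55.3, 127 and 102 CPM in the other cells of anti-ACBP mice and 47.1, 102 and 19.2 CPM in those of isotype mice. Only in isotype mouse 1 was it higher in cluster 8. Csf2 (-2.51) was likewise higher in 1 of 6 mice and Ccl1 (-2.09) in 2 of 6.

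By list, 6 of 17 cytotoxic effector genes were lower in all 6 mice and 0 higher (median -0.72), among them Prf1, which encodes perforin (-1.82), the chemokines Ccl3 (-1.83) and Ccl4 (-1.54), and Ifng (-0.58). Of 14 exhaustion and inhibitory receptor genes 5 were lower and 0 higher (median -0.40): Pdcd1, which encodes PD-1 (-0.92), Lag3 (-0.72), Tigit (-0.36), Cd160 (-0.86) and Cd244a (-2.38). Of 28 cell cycle genes 9 were lower and 0 higher (median -0.74), beside the near-equal pooled shares of cells called S or G2/M given above. Dbi, whose product the antibody binds, stood at -0.43 and was higher in 1 of 6 mice. These pooled levels mix lineages, and the share of CD8 cells, given next, was smaller in cluster 8 in every mouse but anti-ACBP mouse 2.

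By its own UMIs a cell was counted as CD8 (more Cd8a plus Cd8b1 than Cd4), conventional CD4 (more Cd4) or regulatory (Foxp3 with at least as much Cd4 as Cd8). Cluster 8 was 29.2% CD8 (145 cells), 41.4% conventional CD4 (206), 13.1% regulatory (65) and 16.3% unassigned (81). The other cells were 55.5% CD8, 25.4% conventional CD4, 12.5% regulatory and 6.58% unassigned. These shares are pooled over mice. Anti-ACBP mouse 2 went the other way, with 78.9% CD8 cells in cluster 8 against 58.9% in its other cells. UMIs of both Cd4 and Cd8 were found in 9.05% of cluster 8 and 5.37% of other cells, and the authors' column DF1, which no source used here explains, was FALSE in 8.45% and 7.82%. Every lineage of the sort was present in cluster 8.

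The direction of most named genes was also seen within CD8 and within conventional CD4 cells. Regulatory cells were not compared in this way. Within CD8 cells, in the 4 mice with at least 10 such cells in cluster 8, 23 of the 24 named higher genes were higher in every mouse and 8 of the 14 named lower genes were lower in every mouse. Within conventional CD4 cells, also in 4 mice, the counts were 20 of 24 and 12 of 14. The genes were named for their ratios in these same cells, so the counts are a description and give no separate support. The share over all genes within a lineage was not counted. The median log2 ratio of Hspa1a was 7.37 within CD8 and 7.48 within conventional CD4 cells. For Gzmd it was -6.64 within CD8 and -6.23 within conventional CD4 cells, so the lower level was seen in both lineages.

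At the level of single cells most cells of the cluster lay above most other cells, but the ranges overlapped. A UMI of Hspa1a or Hspa1b was found in 496 of 497 cells of cluster 8, against 7.06% of other cells. Their sum had a median of 38.0 per 10000 UMIs in cluster 8 with a 5th percentile of 12.1, and a median of 0 in the other cells. The sum ranged from 0 to 581 per 10000 UMIs in cluster 8 and from 0 to 155 in the other cells. Of the 30252 other cells 239 (0.790%) reached that 5th percentile and 37 (0.122%) the median. These are small shares of the other cells, but 239 cells is not a small number beside the 497 of the cluster. With every cell thinned to 2000 UMIs, which left out 25 cells of cluster 8 and 1005 others, Hspa1a was detected in 87.5% of cluster 8 and 1.61% of other cells (unthinned 94.6% and 3.31%). Fos was detected in 18.2% and 3.66% and Jun in 23.9% and 5.86% after thinning (unthinned 33.2% and 7.57%, and 42.5% and 15.7%). The HSP70 genes were thus detected in most cells of the cluster and the AP-1 genes in a minority, at this depth.

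Among the 8 other clusters, cluster 5 came next for Hspa1a, with 54.4 ± 61.0 CPM (SD, n = 6 mice; 2.29 to 156), then cluster 3 with 28.3 ± 8.25 CPM, against 2780 ± 735 CPM in cluster 8. Clusters 5 and 3 did not differ beyond their spread. Cluster 5 was also next for Fos, with 119.5 ± 98.1 CPM against 286 ± 296 CPM in cluster 8, where the ranges over mice overlapped.

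CD8 and conventional CD4 cells inside cluster 8 were compared in anti-ACBP mouse 1 and isotype mice 1 and 3, the mice with at least 10 cells of each, with the mouse as a block. The rule that formed the cluster did not use lineage, but clustering used the same cells' transcripts, so these tests compare cells that were grouped for likeness. A gene is called where the p of edgeR's quasi-likelihood test, adjusted by Benjamini-Hochberg over all genes tested, is under 0.05. Of 2254 genes 65 (2.88%) were called, 31 (1.38%) higher and 34 (1.51%) lower in CD8 cells.

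Cytotoxic genes were the main difference between the lineages inside cluster 8. Prf1 had 185, 176 and 516 CPM in CD8 cells of anti-ACBP mouse 1, isotype mouse 1 and isotype mouse 3, against 0, 3.24 and 0 CPM in CD4 cells (log2 fold change 6.03, SE 0.49, adjusted p = 7.9e-07). Gzmb, the main death-inducing granzyme, had 1777, 1186 and 2291 CPM in CD8 cells, against 497, 249.8 and 426 CPM in CD4 cells (2.20, SE 0.20, adjusted p = 2.6e-06). In both genes the lineages did not overlap. In all 8 of 14 cytotoxic effector genes tested were higher and 0 lower, with a median log2 fold change of 1.56 against 0.02 over all genes; Gzma (5.52), Gzmk (3.28) and Nkg7 (1.61) were among them. The glycolysis and hypoxia list had 4 of 22 higher and 0 lower (median 0.51), namely Bnip3, Slc16a3, Eno1 and Tpi1.

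Of the chaperone genes tested, Hspb1 was the 1 called between the lineages. Hspb1 had 89.2, 56.7 and 686 CPM in CD8 cells against 0, 8.65 and 67.3 CPM in CD4 cells (3.17, SE 0.43, adjusted p = 0.00024), and CD8 was higher in each of the 3 mice. In anti-ACBP mouse 1 the value comes from the 1 cell with a UMI. A UMI of it was found in 11.7% of CD8, 2.91% of conventional CD4 and 12.3% of regulatory cells of cluster 8. The 6 marker genes were not called: Hspa1a differed by -0.12, Hspa1b by -0.44, Hsph1 by 0.03, Dnajb1 by 0.50, Fos by -0.28 and Jun by -0.25 (lowest adjusted p 0.287, for Hspa1b). The metallothionein genes Mt1 (2.36) and Mt2 (2.41), which bind zinc and copper, were higher in CD8 cells.

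Genes lower in CD8 cells, and so higher in the CD4 cells of the cluster, included Cd40lg, the helper signal to B cells and dendritic cells (-2.93), the transcription factor gene Maf (-3.40), Tnfsf11 (-1.70), and Csf2 (-5.40), which had 0, 14.2 and 0 CPM in CD8 cells and 122, 610 and 0 CPM in CD4 cells. The NF-κB inhibitor gene Nfkbia (-1.20) and the stress gene Gadd45b (-1.76) were the 2 of 23 immediate early and feedback genes called, and Junb (-0.90) the 1 of 8 AP-1 genes. Of 8 regulatory T cell genes tested 3 were lower, Ctla4 (-0.90), Tnfrsf4 (-0.99) and Ccr8. Of 36 named genes 7 were called in all 3 fits that left out a mouse, among them Prf1, Gzmb, Maf and Mt1. A further 12 were called where they had a value but had none in at least 1 such fit, among them Gzma, Gzmk, Hspb1 and Csf2, and 17 lost their call in at least 1. Without isotype mouse 1 the count was 15, without isotype mouse 3 it was 137 and without anti-ACBP mouse 1 it was 123.

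The share of T cells in cluster 8 was 0.724%, 0.650% and 0.336% in anti-ACBP mice, against 4.56%, 0.839% and 0.914% in isotype mice. Each anti-ACBP mouse lay below each isotype mouse, with means of 0.570 ± 0.206% and 2.10 ± 2.13% (SD, n = 3 each; difference -1.53 points; exact two-sided permutation test p = 0.1, the smallest that 3 against 3 allows). Exact 95% binomial intervals, which cover counting error only, were 0.531 to 0.965% in anti-ACBP mouse 1 and 0.613 to 1.12% in isotype mouse 2, so neighbouring mice of the groups overlapped within counting error. The difference rests on isotype mouse 1, and without it was -0.307 points. Within lineages the groups overlapped for CD8 cells, with 0.420%, 0.869% and 0.159% in anti-ACBP mice and 2.27%, 0.275% and 0.711% in isotype mice (exact p = 0.6).

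**Figure D3:**
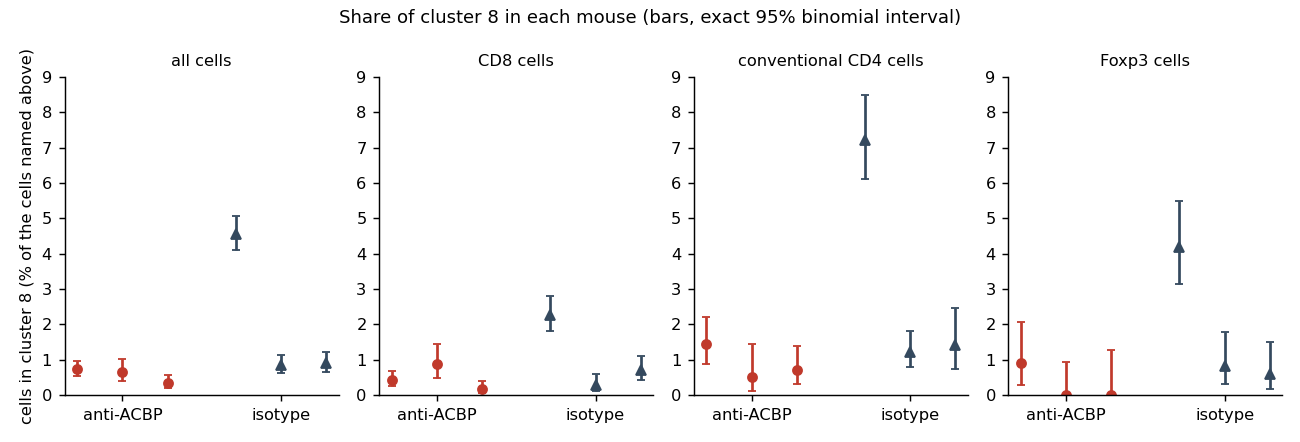
Share of cells in cluster 8 (percent) in each mouse, for all cells and within CD8, conventional CD4 and regulatory T cells, with exact 95% binomial intervals, anti-ACBP mice left of isotype mice. Isotype mouse 1 stands apart in every panel, at 4.56% of all its cells. In the panel of all cells the remaining mice lie between 0.336% and 0.914%.

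Among conventional CD4 cells the shares were 1.43%, 0.494% and 0.709% in anti-ACBP mice and 7.23%, 1.22% and 1.42% in isotype mice (exact p = 0.3). Among regulatory T cells they were 0.893%, 0% and 0% in anti-ACBP mice and 4.19%, 0.820% and 0.583% in isotype mice (exact p = 0.3). The zeros were 0 of 400 and 0 of 288 cells, which allow shares of up to 0.918% and 1.27% by the exact interval, so isotype mice 2 and 3 were not distinguishable from them at this depth. The other cells of isotype mouse 1 also had the highest Hspa1a (29.5 CPM) and Hsph1 (121 CPM) among the 6 mice, and 16.4% of them had a UMI of Hspa1a or Hspa1b, against 1.71% to 5.57% in the other mice; the part of this in the share was not tested. The 10 genes that lead the cluster were not called with treatment in cluster 8 or in the other cells.

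Inside cluster 8 the genes called with anti-ACBP were few and held none of the chaperone genes when all cells of the cluster were summed. Of 2932 genes tested 16 (0.546%) were called, 12 (0.409%) higher and 4 (0.136%) lower with anti-ACBP. The groups did not overlap in 15.1% of the genes tested. The sums differed in lineage: CD8 cells made up 37.0%, 78.9% and 28.6% of cluster 8 in anti-ACBP mice and 25.2%, 13.3% and 46.5% in isotype mice, and regulatory cells 10.9%, 0% and 0% against 15.2%, 13.3% and 9.30% in isotype mice. The part of this mix in the changes below was tested only by the fits within lineages that follow. The log2 fold change of Hspa1a was -0.08 (SE 0.30, adjusted p = 0.98), that of Hspa1b 0.00, Hsph1 -0.29, Dnajb1 -0.28 and Jun 0.59. For Fos it was 1.83 with an SE of 0.89 (adjusted p = 0.636), and the groups overlapped. These p-values do not show that the levels were alike. In the HSP70, HSP40, HSP90 and small HSP lists 0 of 8, 12, 11 and 14 genes tested were called, with list medians of -0.03, -0.06, -0.14 and -0.03. For Dbi it was -0.39 (adjusted p = 0.728).

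Galectin-3 gave the clearest change. Lgals3, which encodes this sugar-binding lectin, had 935, 549.6 and 748 CPM in cluster 8 of anti-ACBP mice, against 224, 277 and 258 CPM in isotype mice (log2 fold change 1.59, SE 0.19, adjusted p = 0.00026). Ifitm1, an interferon-induced membrane protein that restricts viral entry, had 1681, 1269.6 and 1448 CPM in anti-ACBP mice, against 525, 611 and 705 CPM in isotype mice (1.27, SE 0.17, adjusted p = 0.00041). Ifi27l2a, an interferon-induced gene, fell to 2177, 1687 and 2251 CPM in anti-ACBP mice, against 3811, 4558 and 4054 CPM in isotype mice (-1.03, SE 0.15, adjusted p = 0.00085). Ifi27l2a was also lower in CD8 than in conventional CD4 cells of the cluster (-0.86, adjusted p = 0.0039). The groups were separate in each, as the rule for naming the largest changes required. These were the 3 of 15 named genes that stayed called whichever mouse was left out, with adjusted p up to 0.0259.

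**Figure D4:**
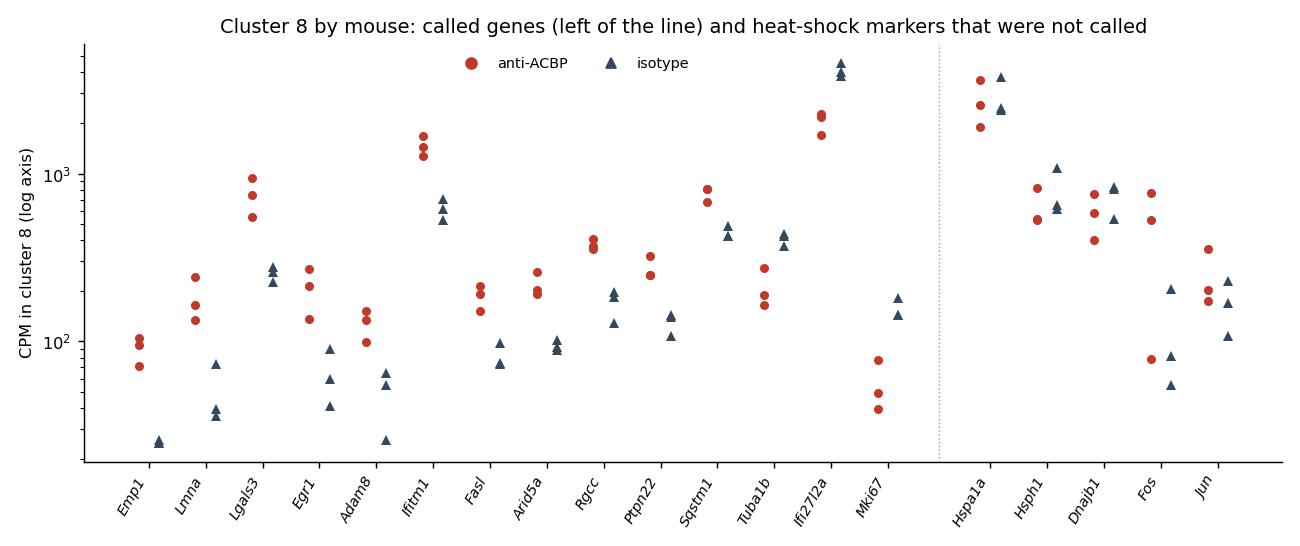
Level in cluster 8 (CPM of summed UMI counts per mouse, log axis) of genes called with anti-ACBP and, right of the line, of 5 marker genes, anti-ACBP mice left of isotype mice. Lgals3, Ifitm1 and Ifi27l2a are separated between the groups, with Lgals3 at 549.6 to 935 CPM and 224 to 277 CPM, while Hspa1a, at 1881 to 3606 CPM and 2407 to 3747 CPM, overlaps.

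Among the other 12 named calls, each lost in at least 1 fit that left out a mouse, were several higher genes of different roles. Emp1, an epithelial membrane protein, had 94.5, 104 and 70.8 CPM in anti-ACBP mice, against 24.9, 25.7 and 24.8 CPM in isotype mice (1.89). Lmna, which encodes lamin A and C of the nuclear envelope, had 243, 165 and 134 CPM, against 73.1, 35.9 and 39.7 CPM in isotype mice (1.68). Rgcc (1.11), Adam8 (1.35), a surface protease, Arid5a (1.16), an RNA-binding regulator of cytokine transcripts, and Ptpn22 (1.01), a phosphatase that dampens receptor signals, rose too. Fasl, the death ligand, was the 1 of 14 cytotoxic effector genes called (1.21), beside a list median of 0.59 with 13 of 14 above 0, against a median of -0.00 over all genes. Within CD8 cells that list had a median of 0.25 with 0 of 14 called, and over the whole cluster the regulatory T cell list had a median of -0.56 with 0 of 10 called. Egr1 (1.48), with 135, 269 and 212 CPM in anti-ACBP mice and 89.7, 41.1 and 59.5 CPM in isotype mice, was the 1 of 23 immediate early and feedback genes called, and Sqstm1 (0.76), an autophagy receptor, the 1 of 15 ubiquitin and proteasome genes. Vgll4 (0.97) was also called and was named after its value was seen.

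Besides Ifi27l2a, the genes that fell included Mki67 and Tuba1b. Mki67, the proliferation antigen Ki-67, had 77.6, 49.5 and 39.3 CPM in anti-ACBP mice, against 182, 144 and 144 CPM in isotype mice (-1.43, SE 0.28, adjusted p = 0.021), and was the 1 of 12 cell cycle genes called; all 12 had values below 0, with a median of -0.46. Tuba1b, a tubulin, fell by 0.98 on the log2 scale. The authors' calls put 26.1%, 21.1% and 21.4% of cluster 8 in S or G2/M phase in anti-ACBP mice. In isotype mice these shares were 27.0%, 44.4% and 37.2%, and their part in the lower values was not tested. Within CD8 cells of the cluster the cell cycle list had a median of -0.06, with 4 of 10 above 0. Within conventional CD4 cells, with 1 anti-ACBP mouse, the median was -1.12.

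The same genes were tested in the other T cells of these mice, where 260 of 12479 genes (2.08%) were called. The log2 fold change there was 1.01 for Lgals3 (adjusted p = 0.0883), 0.64 for Ifitm1 (adjusted p = 0.295), -0.57 for Ifi27l2a (adjusted p = 0.0252), 1.77 for Emp1 (adjusted p = 0.0202) and 1.87 for Lmna (adjusted p = 0.0462). Whether the change in cluster 8 differed from that in the other cells was tested by an interaction term, with mice as blocks, over 12054 genes, of which 10 (0.083%) were called. Of the 16 genes 0 were among them and 11 had an unadjusted p under 0.05; DESeq2 called 0 interactions in all. The 16 genes are therefore not shown to respond differently in cluster 8.

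Within CD8 cells of cluster 8, anti-ACBP mice 1 and 2 were set against isotype mice 1 and 3, since the other libraries had under 10 such cells. Of 2292 genes 10 (0.436%) were called, 8 higher (0.349%) and 2 lower (0.0873%). Lmna had 295 and 152 CPM in anti-ACBP mice against 39.4 and 28.2 CPM in isotype mice (2.55), and Fosb, an AP-1 gene, 240.1 and 189.99 CPM against 59.8 and 37.6 CPM in isotype mice (1.95). Emp1 (2.17), Kdm6b (1.95), a histone demethylase, Rgcc (1.90), Lgals3 (1.25), Crip1 (1.19) and Id2 (1.03), a regulator of effector differentiation, were the other higher genes. Prdm1, which encodes the effector regulator Blimp-1, had 6.86 and 6.33 CPM in anti-ACBP mice against 78.7 and 93.9 CPM in isotype mice (-3.57). Its anti-ACBP values lie near the floor, since those sums held only 146026 and 158151 UMIs. Ankrd37, a hypoxia-induced gene, fell by 2.05 on the log2 scale. Both genes lost their call with DESeq2 and without cells marked FALSE in DF1. Ifitm1 (0.15, adjusted p = 0.992), Ifi27l2a (-0.63, adjusted p = 0.356), Fasl (0.59, adjusted p = 0.992) and Mki67 (-0.17, adjusted p = 0.997), called over the whole cluster, were not called within CD8 cells. All 10 were lost in at least 1 fit that left out a mouse (18 calls without anti-ACBP mouse 2), and DESeq2 called 0 (28 genes had an unadjusted p under 0.05).

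Within conventional CD4 cells the comparison had 1 anti-ACBP mouse, number 1, against 3 isotype mice, and assumes that the lone sample varies as the isotype mice do. Of 2273 genes 22 (0.968%) were called, 11 higher and 11 lower (0.484% each). Ifitm1 had 2388 CPM in the anti-ACBP mouse against 318, 428 and 808 CPM in isotype mice (2.37), Fos 758 CPM against 228, 48.6 and 67.3 CPM (2.32), and Jun 523 CPM against 126.5, 87.5 and 157 CPM (2.11). The anti-ACBP mouse lay above all isotype mice in each, but the rule for naming the largest changes required such separation, so it adds no support. Hspa1b, which was not called, also had the anti-ACBP mouse above all isotype mice. The share of genes so separated among those tested is not given here. Lgals3 (1.85), the cytokine receptor gene Il7r (1.496) and the endoplasmic reticulum chaperone gene Hspa5 (1.11, adjusted p = 0.042; 1 of 6 HSP70 and HSP110 genes tested) were also higher, and Mki67 (-2.46), Isg15 (-2.15) and Ifi27l2a (-1.18) lower. Without isotype mouse 3 the count was 1, Ifitm1.

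T cell receptors were read as clones, cells of 1 mouse with a single TRB chain of the same V gene and CDR3 nucleotides. A TRB chain was found in 67.4%, 68.4% and 50% of cluster 8 cells in anti-ACBP mice and 72.7%, 60% and 69.8% in isotype mice. In the other cells it was found in 79.9%, 83.5% and 83.0% in anti-ACBP mice and 79.9%, 77.5% and 77.4% in isotype mice. Detection was lower in cluster 8 in 6 of 6 mice, at 64.7 ± 8.36% against 80.2 ± 2.61% (difference -15.5 points; exact two-sided sign-flip permutation test p = 0.031, the smallest that 6 mice allow; 0.156 adjusted over 5 receptor comparisons). Pooled over mice, the median cell of cluster 8 also had fewer UMIs, as given above. By mouse this did not hold in anti-ACBP mouse 2 (8097 UMIs against 7679.5 in its other cells) or anti-ACBP mouse 3 (8550.5 against 6667). The part of depth in TRB detection was not tested. More than 1 TRB chain, a sign of doublets, was seen in 1.97 ± 2.64% of typed cluster 8 cells against 3.99 ± 2.24% of other typed cells (exact p = 0.1875, adjusted 0.469).

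The share of cells in expanded clones differed from that of other cells by less than the spread between mice. Among CD8 cells 89.0 ± 9.47% of typed cluster 8 cells shared a clone with another cell, against 94.96 ± 0.952% of other cells (SD, n = 4 mice with at least 5 typed cells in cluster 8; difference -5.91 points; exact sign-flip permutation p = 0.375, adjusted 0.625, smallest possible 0.125). Among conventional CD4 cells it was 90.0 ± 2.91% against 88.9 ± 4.10% (n = 4; difference 1.10 points; exact p = 0.75, adjusted 0.8125). In isotype mouse 1 the 236 typed cells of cluster 8 fell into 153 clones, and the clone with most of them, using TRBV19, had 12 of its 146 cells in the cluster. In anti-ACBP mouse 1 the 29 typed cells fell into 26 clones, and its largest clone, using TRBV12-2, had 3 of 612 cells there. No single clone made up the cluster.

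The clone mates of cluster 8 cells lay mostly in the main clusters of their lineage. Of 90 typed CD8 cells 81 had a mate, and with each cell weighted equally 62.4% of mates were in cluster 0, 10.5% in cluster 4, 10.4% in cluster 3 and 1.85% in cluster 8. The typed CD8 cells outside cluster 8 had 58.5%, 10.9% and 14.4% in clusters 0, 4 and 3. By the UMI rule 97.5% of these mates were CD8 cells. Of 161 typed conventional CD4 cells 144 had a mate, with 56.9% of mates in cluster 1, 10.6% in cluster 7 and 7.74% in cluster 8, and of 40 typed regulatory cells 27 had one, with 82.5% in cluster 2 and 10.6% in cluster 1. Among CD8 pairs of a clone with 1 cell in cluster 8, 0.733% of partners were in cluster 8 too, against 0.588% of other CD8 cells (difference 0.146 points over 6 mice; exact sign-flip permutation p = 0.8125, also after adjustment).

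**Figure D5:**
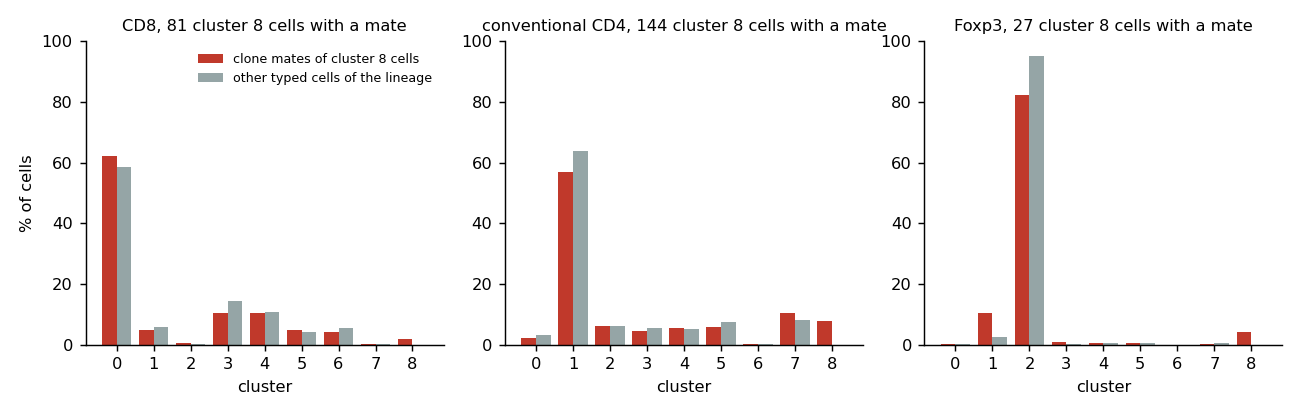
Share of the clone mates of cluster 8 cells in each cluster (percent, each cell weighted equally, pooled over mice), beside the share of typed cells of the lineage outside cluster 8 (grey, at 0 for cluster 8 by construction), for CD8, conventional CD4 and regulatory T cells. The largest bars fall in the same cluster for mates and for other cells, with 62.4% against 58.5% in cluster 0 for CD8 cells and 56.9% against 64.01% in cluster 1 for conventional CD4 cells.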

How the data were processed

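The authors deposited unscaled, whole-number UMI counts for each barcode, a per-cell table with cluster numbers, and receptor contigs. Libraries were made with 10x 5′ chemistry, per the labels' protocols, and Seurat, the mm10 build and Cell Ranger 7.0.0 are listed, without roles, per the submitters' processing notes. How reads shared by paralogs were counted is not stated.

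Counts of table cells were summed per mouse (at least 10 cells) and tested with edgeR 4.0.16 (quasi-likelihood, robust, TMM, filterByExpr; R 4.3.3), Benjamini-Hochberg at 0.05 over all genes tested, without receptor segments; DESeq2 1.42.0 was an alternative. The tests were also run on simulated counts in which 200 genes had large changes. Of the changed genes tested, 69.1% were called in the conventional CD4 fit, 89.2% in the CD8 fit and 93% to 100% in the others. The simulated spread was fixed and below that estimated for the fits inside cluster 8, so the check does not cover smaller changes or that spread. CPM leave receptor segments out of the total. Cluster 8 is described by its 6 markers, the 25 highest and 15 lowest genes by median log2 ratio at 50 CPM or more, less 1 of each known only by a number. Tests name the markers, Dbi, the 10 largest called changes each way at 10 CPM, and up to 4 called members of each of 19 lists. Inside cluster 8, treatment tests name the largest changes only where the groups did not overlap. Of genes outside this, those named in a list were chosen after their values were seen. Shares and receptors were compared by exact permutation tests (Python 3.11.15, numpy 2.4.6, scipy 1.17.1, pandas 2.3.3). All tests were two-sided. The labels name 1 mouse per library. Same-numbered libraries did not deviate together (correlations 0.175, -0.028 and -0.019), so no pairing was used. 1 gene that meets this rule is not reported here. The members and the lists were chosen with earlier results of these data known.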

Additional observations from a re-analysis of the deposited data

Results flagged for a closer look

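In 8 named genes the change with anti-ACBP in cluster 8 differed from that in the other cells of the same mice (edgeR interaction with the mouse as a block, adjusted p under 0.05; 10 of 12054 genes, 0.083%). All 8 lost the call without isotype mouse 1, and DESeq2 called 0 (182 genes had an unadjusted p under 0.05). Mt1, a metallothionein gene that binds zinc and copper, had the smallest p. It had 1100.2, 544 and 551 CPM in cluster 8 of anti-ACBP mice and 252, 241 and 739 CPM in cluster 8 of isotype mice, where isotype mouse 3 overlapped the anti-ACBP mice. The other cells had 652, 398 and 366 CPM in anti-ACBP mice and 489.6, 433 and 764 CPM in isotype mice. The interaction was 1.20 on the log2 scale (adjusted p = 1.1e-06), and 0.0805 was its adjusted p without isotype mouse 1. Mt1 was also higher in CD8 than in conventional CD4 cells of cluster 8 (2.36, edgeR adjusted p = 0.0039). CD8 cells made up 37.0%, 78.9% and 28.6% of cluster 8 in anti-ACBP mice and 25.2%, 13.3% and 46.5% in isotype mice. The part of this mix in the interaction was not tested.

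Cdkn1a, which encodes the cell cycle inhibitor p21, had an interaction of 1.04, with 249.7, 192 and 606 CPM in cluster 8 of anti-ACBP mice and 178, 174.5 and 134 CPM in that of isotype mice. Its level in the other cells lay between 199 and 260.4 CPM in all 6 mice, and anti-ACBP mouse 3 was the highest in cluster 8. Ccr7, the lymph node homing receptor, had an interaction of 1.25, Mxi1, an antagonist of Myc, 1.13 and Phlda1 -1.02.

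Single libraries carried 3 further interactions. Cxcl2, a neutrophil chemokine, had 4.76 and rested on 81.0 CPM in anti-ACBP mouse 1. Gzme had 2.80, with 67.5 CPM in anti-ACBP mouse 1 and at most 5.50 CPM in cluster 8 of the other mice. Cxcl10, an interferon-induced chemokine, had -3.03, with 47.8 CPM in isotype mouse 1. Each of the 3 changed sign when the named mouse was left out, and the cause was not tested.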

How the results depend on the processing

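Over the alternatives run, 1092 of 1095 values of single genes kept their direction; the exceptions were the interactions of Cxcl2 (-1.81) and Gzme (-0.021) without anti-ACBP mouse 1 and of Cxcl10 (3.86) without isotype mouse 1, whose ranges with a mouse left out were -1.81 to 6.33, -0.021 to 10.9 and -3.27 to 3.86. Counts of called genes moved more. The 16 genes called with anti-ACBP in cluster 8 were 7 with DESeq2, 43 with no filter on low counts, 5 without cells marked FALSE in DF1, and 4 to 15 with 1 mouse left out (4 without anti-ACBP mouse 2, 5 without anti-ACBP mouse 1, 7 without isotype mouse 1, 9 without isotype mouse 3); with the replicate number as a block they were 23. In CD8 cells of cluster 8 the 10 were 0 with DESeq2, 3 without DF1 FALSE cells and 7 to 18 with a mouse left out, and no block could be fitted. In conventional CD4 cells the 22 were 2 with DESeq2, 8 with no filter, 5 without DF1 FALSE cells and 1 to 22 with an isotype mouse left out. The 10 interactions were 0 with DESeq2 and 1 to 19 with a mouse left out (1 without isotype mouse 1, and 16 to 19 without isotype mouse 2 or an anti-ACBP mouse). The 65 genes between lineages were 32 with DESeq2, 115 with no filter, 38 with no replicate block and 15 to 137 with a mouse left out. The cause of these moves was not tested.

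The share difference of -1.53 points ran from -2.17 to -0.307 with a mouse left out. The TRB detection difference ran from -17.2 to -12.0 and within CD8 cells was -15.8 (exact p = 0.125), and that of several TRB chains from -2.79 to -1.47. The difference in expanded clones ran from -9.49 to -1.64 in CD8 cells and from -0.232 to 1.82 in conventional CD4 cells, where it was -1.97 for clones of at least 5 cells. The clone mate difference ran from -0.0355 to 0.204 and was -0.259 with TRA and TRB chains together. Depth limits the anti-ACBP sums of cluster 8, with 14 cells in the smallest, and genes low in these sums were not tested.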

Other observations

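Barcodes that the authors' table leaves out also held HSP70 transcripts. Summed over these barcodes, Hspa1a plus Hspa1b had 90.8, 148 and 166 CPM in anti-ACBP libraries and 389, 116 and 215 CPM in isotype libraries. Among them 7, 6 and 8 barcodes in anti-ACBP libraries and 22, 2 and 18 in isotype libraries had at least 5 UMIs of the pair and at least 10 per 10000 UMIs. Isotype mouse 1, which gave most cells of cluster 8, was highest in the summed level. As a share of the barcodes with at least 500 UMIs, the count was 0.101%, 0.145% and 0.144% in anti-ACBP libraries and 0.285%, 0.0423% and 0.436% in isotype libraries, highest in isotype mouse 3.

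The regulatory T cells of cluster 8 (65 cells, of which 50 came from isotype mouse 1) had a lower Dnajb1 level than its CD8 and conventional CD4 cells, as a description of pooled cells. Pooled over mice, Dnajb1 had 270.1 CPM in them, 757 CPM in CD8 and 567 CPM in conventional CD4 cells of cluster 8, and after thinning it was detected in 34.4%, 63.9% and 56.6% of these. Hspa1a was detected in 96.9% of the thinned regulatory cells, 89.6% of CD8 and 83.7% of conventional CD4 cells, and its paralog Hspa1b in 87.5%, 91.7% and 93.4%. Pooled levels of Hspa1a were 2168 CPM in regulatory, 2492 CPM in CD8 and 2869 CPM in conventional CD4 cells, and of Hspa1b 1719, 2476 and 2914 CPM. Jun was detected in 31.2%, 25.7% and 18.4%. Most of these cells came from 1 mouse, and no test over mice was run.

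The clone mates of regulatory cells were by UMIs 65.5% regulatory, 20.9% conventional CD4 and 13.5% unassigned cells. The rule counts a regulatory cell without a detected Foxp3 UMI as conventional CD4 or unassigned. By cluster, 82.5% of these mates were in cluster 2, as were 95.2% of the other typed regulatory cells. The 20.9% therefore cannot show how many clones regulatory and conventional CD4 cells share.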
